A study of Mus musculus with 8 samples.

Results

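The genes described here encode the nuclear subunits of respiratory complexes II, III and IV and of ATP synthase (complex V). They were taken by name: 4 genes of complex II, 9 of complex III, 10 of complex IV and 14 of ATP synthase. These 37 genes were all found among the 31417 genes of the count table, and all 37 were among the 16228 genes that passed the filter on low counts. Poly(A) RNA of bulk mouse hippocampus was sequenced in 8 libraries. The knockout (KO) group held 4 libraries from mice with a Dclk3 knockout and the wild-type (WT) group held 4 libraries from WT mice named as the knockout's controls, all aged 12 months. Dclk3 encodes a protein kinase of the doublecortin-like family. Each library came from the RNA of a single hippocampus. It is not stated whether each library is from its own animal, and the p-values therefore measure the spread between these samples, which may be technical. Neither the strain nor the stretch of Dclk3 removed is given in the sources used here. The comparison asks whether the transcripts of the respiratory chain beyond complex I differ between hippocampus of the Dclk3 KO and WT groups, and whether the 4 complexes do so alike.

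Complex II (succinate dehydrogenase) passes electrons from succinate to ubiquinone, complex III (the cytochrome bc1 complex) passes them on to cytochrome c, and complex IV (cytochrome c oxidase) hands them to oxygen. Complexes III and IV pump protons across the inner mitochondrial membrane, and ATP synthase lets the protons return and uses their flow to make ATP. Neurons depend on this chain for the ATP that restores ion gradients after firing. All subunits of complex II are encoded in the nucleus, while the catalytic cores of complexes III and IV and part of the proton channel of ATP synthase are encoded by mitochondrial DNA.

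Libraries held between 29301974 and 36552757 counts, and levels are given as CPM (counts scaled to library size with TMM factors), in which 1 count equalled 0.0272 to 0.0346. Reads amplified by PCR carry no molecular identifiers here, so errors from counting alone are a lower limit. Dclk3 itself was 23.0, 39.3, 20.8 and 23.5 CPM in WT replicates 1 to 4, against 8.19, 9.29, 5.92 and 7.46 CPM in KO replicates 1 to 4. The groups did not overlap, and the log2 fold change (KO over WT) was -1.79 with a standard error (SE) of 0.22, an unadjusted p of 1.44e-05 and an adjusted p of 0.234 in edgeR's quasi-likelihood test with Benjamini-Hochberg adjustment. WT replicate 2 was the highest, and without it the log2 fold change was -1.54 and the adjusted p in edgeR was 0.0121. Over its alternatives that adjusted p ranged from 5.25e-14 (DESeq2) to 0.997. All 10 markers of hippocampal neurons were present, their sum being 2723 to 3456 CPM in WT, against 2462 to 2993 CPM in KO.

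Subunit c of ATP synthase, which forms the rotating ring of the motor, is made by 3 genes, Atp5g1, Atp5g2 and Atp5g3, that encode the same mature protein. The last 150 bases of their coding sequences are printed because they show how far the 3 genes differ from one another. They do not show how far reads can tell these genes from copies elsewhere, which are described further on. Capitals mark differences from Atp5g3, of which there are 29 in Atp5g1 (80.7% identity) and 33 in Atp5g2 (78% identity).
Atp5g3: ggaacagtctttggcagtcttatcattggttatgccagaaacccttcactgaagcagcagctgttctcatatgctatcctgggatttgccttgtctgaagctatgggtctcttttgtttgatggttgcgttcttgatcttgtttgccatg
Atp5g1: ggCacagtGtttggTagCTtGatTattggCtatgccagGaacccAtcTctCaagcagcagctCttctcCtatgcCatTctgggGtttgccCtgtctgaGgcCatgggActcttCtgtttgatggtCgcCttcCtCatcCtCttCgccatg
Atp5g2: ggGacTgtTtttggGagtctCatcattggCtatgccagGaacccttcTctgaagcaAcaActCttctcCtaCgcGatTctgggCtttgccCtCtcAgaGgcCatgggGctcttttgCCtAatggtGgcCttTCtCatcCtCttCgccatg
The coding sequence of Cox7c, a small complex IV subunit, is shown because every base of it lies in a 50-base stretch that also occurs in a transcript of another annotated gene. All 189 bases are in capitals for that reason.
Cox7c: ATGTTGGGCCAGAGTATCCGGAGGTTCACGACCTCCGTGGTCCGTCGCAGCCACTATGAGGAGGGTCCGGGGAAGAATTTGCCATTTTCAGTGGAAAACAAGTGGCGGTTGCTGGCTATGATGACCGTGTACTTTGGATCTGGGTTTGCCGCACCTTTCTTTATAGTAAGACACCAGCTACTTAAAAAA
Stretches of 3 promoters carry matches to motifs of nuclear factors long known to act on respiratory genes. Capitals mark GCGCANGCG (the core of the site of NRF1) or CCGGAAG (the core of the site of ETS factors such as GABP), each searched on both strands. The stretches come from RefSeq, build GRCm38.p6, and lie on the minus strand at chr5:115349059-115349128 (Cox6a1, 70 bases from position -170 relative to the start site), chr2:174464172-174464221 (Atp5e, bases -120 to -71) and chr4:116075071-116075130 (Uqcrh, bases -60 to -1).
Cox6a1 promoter: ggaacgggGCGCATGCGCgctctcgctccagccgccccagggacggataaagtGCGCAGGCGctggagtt
Atp5e promoter: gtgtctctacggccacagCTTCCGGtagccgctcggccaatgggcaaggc
Uqcrh promoter: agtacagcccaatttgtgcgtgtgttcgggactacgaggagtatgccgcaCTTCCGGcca
Of the 37 genes, 29 had a promoter entry of 250 bases before to 50 after the start, and Sdhc, Uqcrc2, Uqcrb, Uqcrq, Cyc1, Cox4i1, Cox6c and Atp5a1 had none. The NRF1-type motif stood in 12 of the 29 (41.4%, against 7.03% of all 27025 genes with a promoter entry) and the ETS-type motif also in 12 (41.4%, against 9.93%). Both stood in 6 genes (20.7%, against 1.49%), namely Sdhd, Uqcr11, Cox6a1, Atp5h, Atp5k and Atp5l, and neither in 11. By complex, the NRF1-type motif was in 2 of 3 entries of complex II, 2 of 5 of complex III, 1 of 8 of complex IV and 7 of 13 of ATP synthase. The 27025 genes include genes that did not pass the filter on low counts, and the sets were not matched for level or GC content. The motif searches and the choice of stretches were made after seeing the data, and a match describes letters only. A start site within 10 bases of the GENCODE gene start was found for 10 of the 32 entries of these genes.

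No subunit gene of the 4 complexes passed the test between KO and WT. edgeR called 0 of the 37 at an adjusted p under 0.05, as DESeq2 and limma-voom also did, and the lowest adjusted p among them was 0.796 in edgeR. Over all 16228 genes edgeR called 0%, limma-voom called 0 genes, and DESeq2 called 0.0321% (5 of 15580). At an unadjusted p under 0.05, edgeR picked 1 of the 37 genes, Atp5l, against 6.16% of all genes (1000 of 16228). DESeq2 picked 3 (Atp5a1, Uqcrc1 and Atp5l), against 968 of 16224 over all genes. The 3 picked by limma-voom (Atp5e, Atp5a1 and Atp5l) stood against 1505 of 16228. With 1 library left out, edgeR picked 0 of the 37 when that library was replicate 2 or 4 of WT or replicate 1, 2 or 3 of KO. It picked 2 without WT replicate 1 and 4 without KO replicate 4. Over all genes the 1000 became 556 without WT replicate 4, 640 without KO replicate 2 and 1777 without KO replicate 4.

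Fitted log2 fold changes of the 37 genes ran from -0.12 (Uqcrc1) to 0.50 (Atp5l), with a median of 0.05 against 0.00029 over all genes. The fold change was above 0 for 23 of 37 (62.2%), against 50.1% of all genes. In complex II, 1 of 4 was above 0 (median -0.04), and in complex III 4 of 9 (median near 0, -9.9e-05). In complex IV, 9 of 10 were above 0 (median 0.06), and in ATP synthase 9 of 14 (median 0.04). The groups did not overlap for 3 of the 37 genes, Sdhb, Uqcrc1 and Atp5a1, each lower in KO, against 3.8% of all genes (617). These differences between complexes were not tested. The directions in complex IV and ATP synthase depended on a joint correction for GC content and transcript length that is described further on. That of ATP synthase also depended on WT replicate 2, without which 6 of 14 genes were above 0 (median -0.01). In complex IV 8 of 10 were above 0 without that library (median 0.03).

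**Figure D1:**
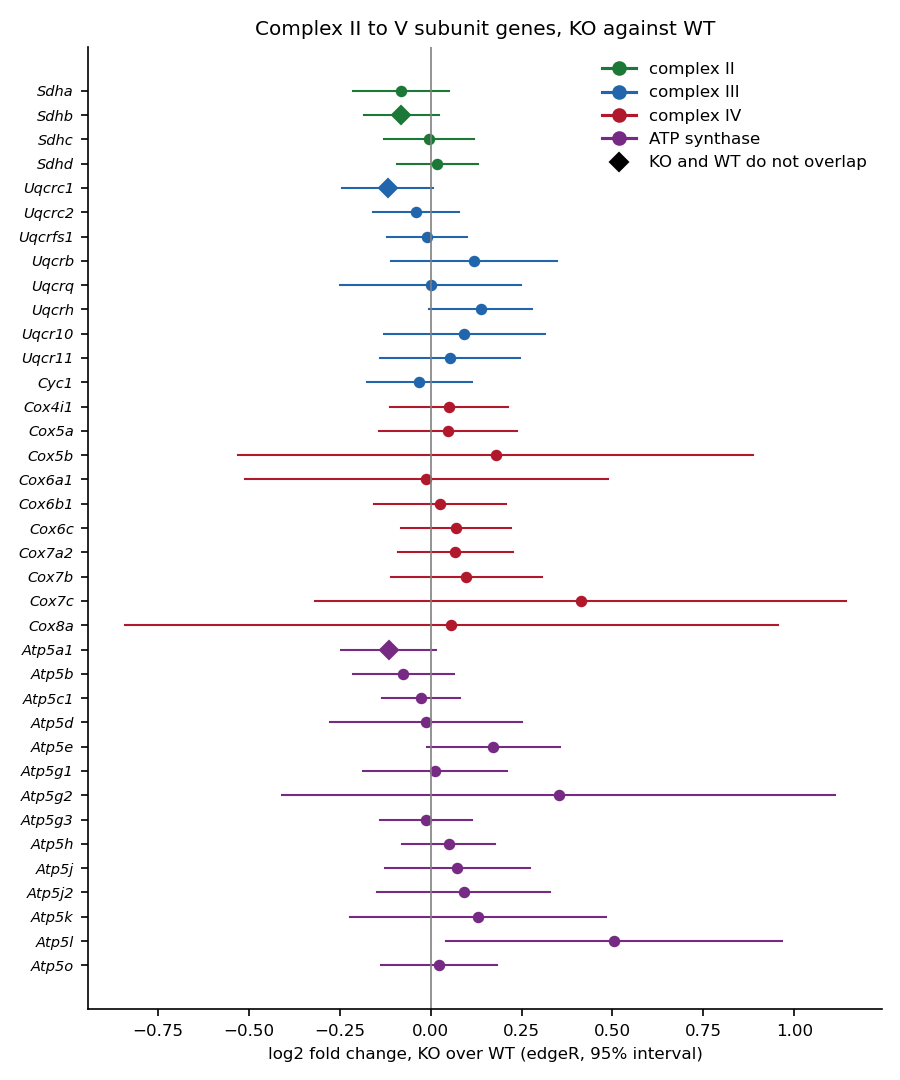
Log2 fold change of each of the 37 subunit genes, KO over WT, on the horizontal axis, with its 95% interval from edgeR as a line and the 4 complexes in colour. Diamonds mark Sdhb, Uqcrc1 and Atp5a1, whose KO and WT libraries did not overlap; the widest intervals belong to Cox8a, Atp5g2, Cox7c, Cox5b and Cox6a1, and Atp5l has the only interval that lies wholly above 0.

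In complex II, Sdhb and Sdha of the catalytic head had the lower mean in KO, and neither passed the test. Sdhb (chr4:140961203-140979193 of mm10), the iron-sulfur subunit that relays electrons, was 102.1, 102.5, 99.0 and 105 CPM in WT replicates 1 to 4, against 96.3, 97.4, 97.9 and 95.1 CPM in KO. The highest KO library was below the lowest WT library, by a narrow gap. The log2 fold change of Sdhb was -0.08 (SE 0.05, 95% interval -0.18 to 0.02), with an unadjusted p of 0.115 and an adjusted p of 0.796 in edgeR. Sdha, the flavoprotein that oxidises succinate, was 469, 473, 483 and 499 CPM in WT, against 440.1, 432, 469 and 479 CPM in KO. KO replicates 1 and 2 lay below all WT libraries, while KO replicates 3 and 4 lay among them. On the log2 scale the fold change of Sdha was -0.08 (SE 0.06, 95% interval -0.21 to 0.05), with an adjusted p of 0.824 in edgeR. The anchor subunits Sdhc and Sdhd, which hold the ubiquinone site in the membrane, were 80.0 ± 2.15 and 90.2 ± 3.52 CPM in WT (SD, n = 4). In KO they were 79.8 ± 4.47 and 91.3 ± 1.91 CPM (SD, n = 4), and the groups overlapped for both. Summed over the complex, levels were 738 to 778 CPM in WT, against 701 to 751 CPM in KO.

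Complex III held both a core subunit with a lower mean in KO and a hinge subunit with a higher mean, and neither passed the test. Uqcrc1 (chr9:108936633-108949623), a core protein on the matrix side, was 233, 231, 217 and 222 CPM in WT replicates 1 to 4, against 215, 210.0, 213 and 193 CPM in KO. The groups did not overlap, and KO replicate 4 was the lowest. The log2 fold change was -0.12 (SE 0.06, 95% interval -0.24 to 0.01), with an unadjusted p of 0.0626 and an adjusted p of 0.796 in edgeR. Uqcrh, the hinge protein beside cytochrome c1, was 103, 88.3, 97.1 and 92.7 CPM in WT, against 112, 107, 102 and 98.9 CPM in KO. KO replicates 1 and 2 lay above every WT library and the other two lay within the WT range. The log2 fold change of Uqcrh was 0.14 (SE 0.06, 95% interval -0.01 to 0.28), with an unadjusted p of 0.0572 and an adjusted p of 0.796 in edgeR.

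The other 7 genes of complex III overlapped between the groups. Uqcrc2, the second core protein, was 233 ± 4.53 CPM in WT, against 227 ± 9.31 in KO (SD, n = 4). The electron carriers of the complex were close in the groups as well. Uqcrfs1, the Rieske iron-sulfur protein, was 89.2 ± 1.34 CPM in WT, against 88.6 ± 3.43 in KO, and Cyc1, cytochrome c1, was 123 ± 4.76 in WT and 120.3 ± 9.06 in KO (SD, n = 4). Of the small subunits, Uqcrb (19.6 against 21.2 CPM) and Uqcr10 (69.3 against 73.9 CPM) had the higher mean in KO. Uqcr11 was 42.0 to 57.4 CPM in WT and 49.2 to 54.0 in KO, and the mean of Uqcrq was 79.3 CPM in WT and 79.2 in KO. WT replicate 2 was the lowest WT library for 7 of the 9 genes, and KO replicate 4 was the lowest KO library for 7 of the 9.

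In complex IV, single libraries of a group lay far apart for Cox8a, Cox6a1 and Cox5b. Cox8a (chr19:7215153-7217616), a small subunit that spans the membrane, was 234, 164, 137 and 124 CPM in WT replicates 1 to 4, against 239, 249.8, 107 and 88.4 CPM in KO. KO replicates 1 and 2 exceeded every WT library and KO replicates 3 and 4 lay below every WT library, so that the KO libraries fell on both sides of the WT range. The log2 fold change of 0.06 had an SE of 0.39 (95% interval -0.84 to 0.95) and an unadjusted p of 0.887. The biological coefficient of variation estimated for Cox8a, 37.4%, stood at the 97.5th percentile of all genes tested. Cox6a1, a subunit at the dimer interface, was 263, 211, 187 and 179 CPM in WT, against 279, 242, 173 and 138 CPM in KO. KO replicate 1 lay above and KO replicates 3 and 4 below the WT range, with a log2 fold change of -0.01 (SE 0.22). Cox5b, a zinc-binding subunit on the matrix side, was 42.7, 28.1, 30.5 and 24.8 CPM in WT, against 48.5, 48.2, 25.4 and 20.6 CPM in KO. On the log2 scale its fold change was 0.18 (SE 0.31), and again KO replicates 1 and 2 lay above the WT range and KO replicate 4 below it. Among ATP synthase genes Atp5d, the delta subunit of the central stalk, showed a smaller spread of the same kind, 171, 143, 139 and 137 CPM in WT, against 167, 166, 134 and 118 CPM in KO. For Cox8a, Cox6a1 and Atp5d, replicates 1 and 2 lay above replicates 3 and 4 in both groups. For Cox5b this held in KO, while WT replicate 3 exceeded WT replicate 2.

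**Figure D2:**
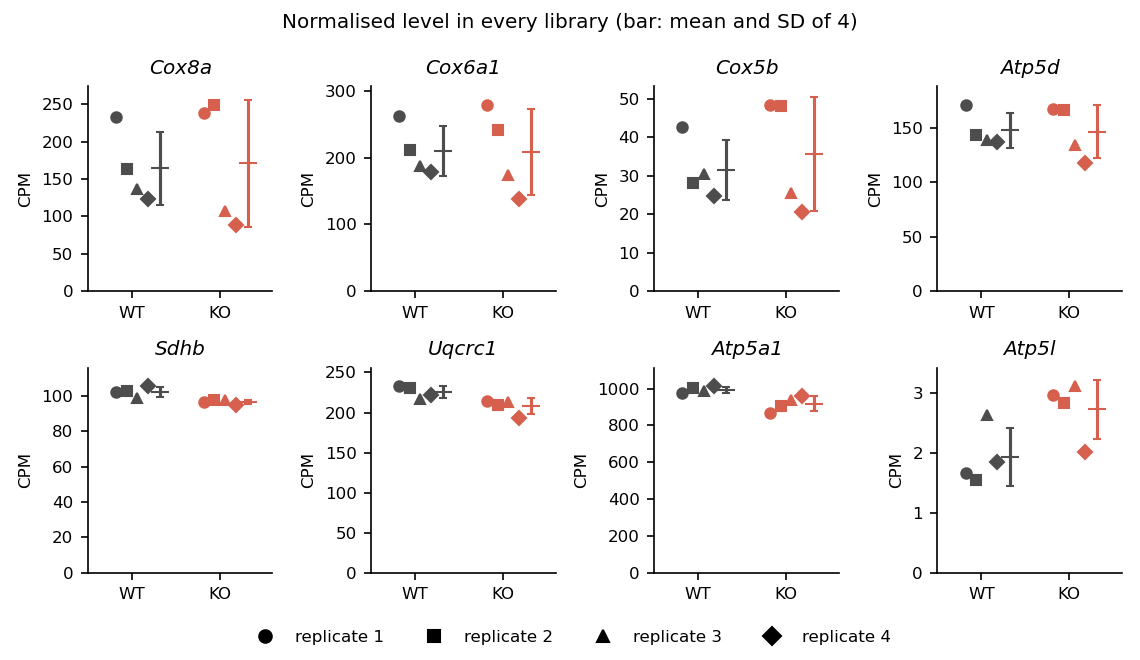
Level in CPM (vertical axes, from 0) of 8 subunit genes in every library, with WT in grey and KO in red, symbols for the replicate number, and a bar for the mean and SD of 4 libraries. In the top row the KO libraries spread as widely as or wider than the WT libraries, as for Cox8a at 88.4 to 249.8 CPM; in the bottom row Sdhb, Uqcrc1 and Atp5a1 do not overlap between groups and Atp5l does.

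Cox8a, Cox6a1 and Cox5b, grouped after their values were seen, made up 35.7%, 33.2%, 28.3% and 26.3% of the summed complex IV CPM in WT replicates 1 to 4, against 36%, 36%, 25.2% and 22.3% in KO. The sum over complex IV was 1305 ± 138 CPM in WT, against 1348 ± 225 CPM in KO (SD, n = 4). Divided by the ATP synthase sum of the same library, it was 0.391 to 0.468 in WT and 0.378 to 0.517 in KO. The other 7 complex IV genes over ATP synthase gave 0.261 to 0.301 in WT and 0.294 to 0.331 in KO. The ratio of complex III to ATP synthase was narrower, 0.304 to 0.318 in WT and 0.315 to 0.331 in KO, and that of complex II was 0.23 to 0.248 in WT and 0.225 to 0.257 in KO. All of these ranges overlapped between the groups.

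The remaining complex IV genes also overlapped between the groups. Cox4i1, a subunit that takes part in regulating the enzyme, was 430.4 ± 31.1 CPM in WT, against 446 ± 29.2 in KO (SD, n = 4). Cox7b, a small membrane subunit encoded on the X chromosome, was 77.9, 61.8, 77.0 and 73.6 CPM in WT, against 86.2, 80.4, 77.4 and 66.7 CPM in KO. KO replicates 1 and 2 lay above the WT range, the others within it, and the log2 fold change was 0.10 (SE 0.09, 95% interval -0.11 to 0.31) with an adjusted p of 0.856 in edgeR. Cox5a was 53.7 CPM in WT, against 55.5 in KO, Cox6b1 169.8 and 172.8, Cox6c 80.3 and 84.3, and Cox7a2 91.7 and 96.1 CPM. KO replicate 4 was the lowest KO library for all 10 genes of complex IV.

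Cox7c was nearly absent from the table: it was 1.20, 0.966, 0.996 and 0.878 CPM in WT replicates 1 to 4 (43, 31, 31 and 26 counts). In KO it was 2.10, 1.65, 0.934 and 0.672 CPM (77, 50, 27 and 21 counts). KO replicates 1 and 2 lay above the WT range and KO replicate 4 below it, and the log2 fold change of 0.41 had an SE of 0.33, an unadjusted p of 0.237 and an adjusted p of 0.828 in edgeR. Its 2.2 CPM per kb compares with 38.9 to 588 CPM per kb for the other 9 genes of the complex.

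Summed CPM was not scaled for the number of genes or for transcript length. The 14 genes of ATP synthase gave the largest sum of the 4 complexes. ATP synthase held 3143 ± 61.1 CPM in WT, against 3023 ± 79.4 CPM in KO (SD, n = 4). Its alpha subunit, Atp5a1, which with beta forms the catalytic head, was 974, 1002, 985 and 1012 CPM in WT replicates 1 to 4, against 867, 904, 937 and 961 CPM in KO. The groups did not overlap, the log2 fold change was -0.12 (SE 0.06, 95% interval -0.25 to 0.01), and edgeR gave an unadjusted p of 0.077 and an adjusted p of 0.796. Atp5b, the catalytic beta subunit, was 1216 ± 50.4 CPM in WT, against 1154 ± 53.0 in KO (SD, n = 4). The groups overlapped for Atp5b. In the central stalk, Atp5c1 (gamma) had the narrowest relative range of the 37 genes over the 8 libraries, 176 to 186 CPM in WT, against 175 to 181 CPM in KO. Atp5e (epsilon) was 70.8, 56.0, 63.8 and 62.0 CPM in WT, against 76.4, 75.5, 68.8 and 64.0 CPM in KO. KO replicates 1 and 2 lay above the WT range, and the log2 fold change of 0.17 (SE 0.08, 95% interval -0.01 to 0.35) had an unadjusted p of 0.0623 and an adjusted p of 0.796 in edgeR.

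Genes of the peripheral stalk and the membrane part of ATP synthase overlapped between the groups. Atp5o, which clamps the stalk to the catalytic head, was 104 ± 8.25 CPM in WT, against 106 ± 6.82 in KO (SD, n = 4). Atp5h was 45.9 CPM in WT, against 47.6 in KO, Atp5j 68.8 and 72.4, Atp5j2 68.8 and 73.2, and Atp5k, involved in pairing of the complexes, 46.3 and 50.7 CPM. WT replicate 2 gave the lowest value of Atp5k, 30.9 CPM, where the other WT libraries held 47.3 to 54.5.
Atp5l (chr9:44912557-44920742), the g subunit that sits with Atp5k where complexes pair, was 1.67, 1.56, 2.63 and 1.86 CPM in WT replicates 1 to 4 (60, 50, 82 and 55 counts). In KO it was 2.97, 2.84, 3.11 and 2.02 CPM (109, 86, 90 and 63 counts). KO replicates 1, 2 and 3 lay above every WT library and KO replicate 4 within the WT range. The log2 fold change was 0.50 (SE 0.21, 95% interval 0.04 to 0.97), with an unadjusted p of 0.0355 and an adjusted p of 0.796 in edgeR.

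**Figure D3:**
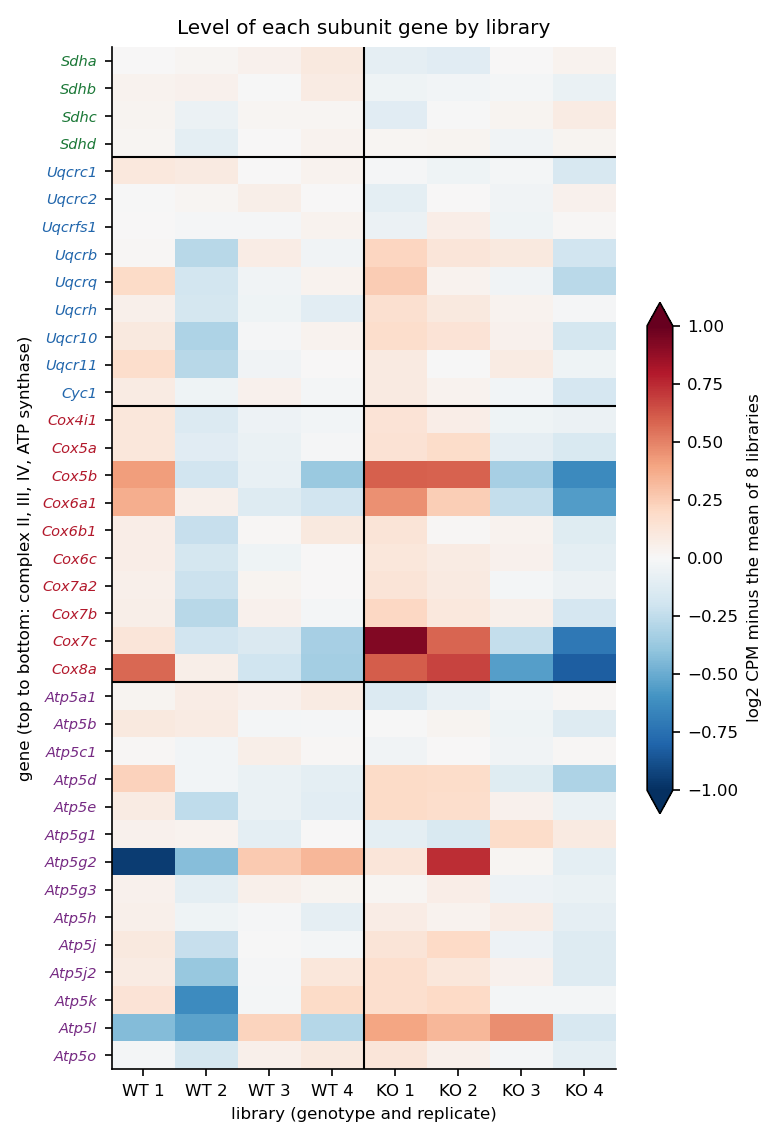
Log2 CPM of each of the 37 subunit genes (rows, by complex) in each of the 8 libraries (columns), minus the gene's mean over the libraries; red is above and blue below that mean. KO replicate 1 and WT replicate 1 are red and WT replicate 2 and KO replicate 4 are blue in most rows of complexes III and IV, with the deepest colours for Cox8a, Cox7c, Cox5b and Atp5g2.

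Of the 3 subunit c genes, Atp5g3 gave nearly all counts. It was 192 ± 8.83 CPM in WT, against 190.3 ± 7.97 in KO, and made up 91.5% to 93.5% of the CPM of the 3 genes over the 8 libraries. Atp5g1 was 14.7 ± 0.668 CPM in WT, against 14.9 ± 1.64 in KO (SD, n = 4), or 6.19% to 8.28%. Atp5g2 was 0.349 ± 0.134 CPM in WT, against 0.442 ± 0.126 in KO, from 7 to 19 counts a library, or 0.0919% to 0.294%. The share of each gene overlapped between the groups. In the transcripts taken, 66% of the 50-base stretches of Atp5g1, 100% of those of Atp5g2 and 0% of those of Atp5g3 also occur in other genes. These shares of CPM are therefore uncertain.

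The lowest levels per length were found for genes whose sequence also occurs in other annotated transcripts. Of the 50-base stretches of each transcript, 100% of those of Atp5g2 also occur in a transcript of another gene, and 84.8% for Atp5l, 66% for Atp5g1, 53% for Cox7c, 50.5% for Atp5h and 50.3% for Atp5o. These 6 genes held a median of 14.5 CPM per kb (0.897 to 125), while the 14 genes with none shared held a median of 159 (65.2 to 305). The share depended on the transcript taken for 2 of them: with the longest equally ranked transcript, it was 87.4% for Atp5g2 and 11.6% for Atp5g1. For Atp5l, Cox7c and Atp5g2 the matching copies are mostly processed pseudogenes, and those copies held few counts too. Gm10221, which holds 52.5% of the stretches of Atp5l, had at most 1 count in a library, and Gm10012, which holds 36.7% of those of Cox7c, had 0 in all libraries. Gm10175, which holds all stretches of Atp5g2, had 10 to 20. How reads that fit several places were counted is not given in the sources used here, so the levels and fold changes of these 6 genes are uncertain. This comparison was made after seeing the data.

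**Figure D4:**
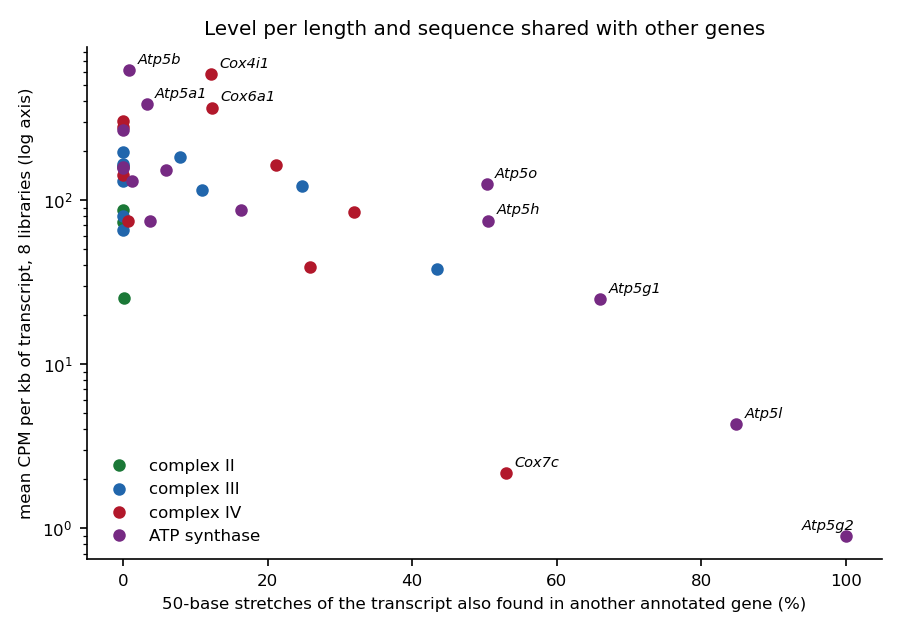
Mean CPM per kb of transcript over the 8 libraries (vertical log axis) against the percentage of 50-base stretches of the transcript that also occur in another annotated gene (horizontal axis), 1 point per subunit gene, coloured by complex. Atp5g2, Cox7c and Atp5l lie far below the rest at 0.897, 2.2 and 4.29 CPM per kb, with 53% to 100% shared, while Atp5h and Atp5o share about as much as Cox7c and lie at 74.8 and 125.

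The sign of the fold change went with transcript length. Of the 25 subunit genes with a transcript under 1000 bases, 21 were above 0 (median 0.07), and of the 12 longer ones 2 were, Sdhd and Cox7b (median -0.04). Cox7b lies just inside the longer class at 1001 bases, and Atp5j2 just outside it at 955 bases. As shares these were 84% and 16.7%. Over all tested genes, 69.1% of the 1402 short genes (median 0.07) and 48.3% of the 14794 longer ones were above 0. The 10% shortest genes had a median centred log2 level of -0.13 in WT replicate 2 and -0.09 in KO replicate 4, against 0.06 in WT replicate 1 and 0.16 in KO replicate 1. Medians over the 37 subunit genes were -0.14, -0.10, 0.07 and 0.13 in the same libraries. Those of the 10% most GC-rich genes were -0.06, -0.12, 0.07 and 0.13, in that order. The part of library preparation or RNA quality in these shifts was not tested. With offsets for transcript GC content and length in edgeR, 12 of 37 genes were above 0 (median -0.03). Of the 25 short genes 10 were then above 0 (40%, against 50.4% of all short genes), and of the 12 longer ones 2, here Sdhc and Cox7b (16.7%, against 48.3%). GC content and length were corrected together, so their parts were not separated. By complex they were 1 of 4 in complex II, 2 of 9 in complex III, 3 of 10 in complex IV and 6 of 14 in ATP synthase. The direction of the overall count, and of those for complex IV and ATP synthase, was thus turned by this correction, under which 13 of 37 genes changed sign and still 0 were called. Sdhb, Uqcrc1 and Atp5a1 were below 0 with the offsets as well, at -0.11, -0.14 and -0.11. The split at 1000 bases and the offsets were chosen after seeing the data.

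**Figure D5:**
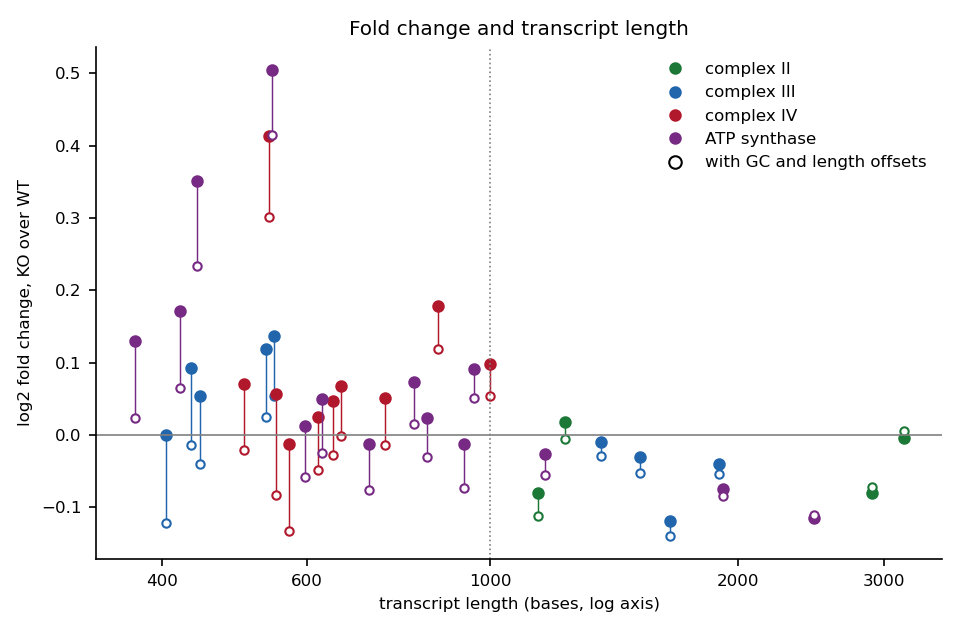
Log2 fold change, KO over WT (vertical axis), against transcript length in bases (horizontal log axis) for the 37 subunit genes, coloured by complex. Filled points are the fit without and open points the fit with offsets for GC content and length, joined by a line, and the dotted line marks 1000 bases; short genes move down with the offsets and the genes above 0 go from 23 to 12.

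The tissue-specific isoforms of complex IV subunits were scarce. Of 12 tested isoforms and further subunits, 8 were above 0 and 0 were called by edgeR. In edgeR 6.16% of all genes had an unadjusted p under 0.05, and 1 of these 12 did. That gene was Cox6b2, the testis form of Cox6b1, at 2.18 ± 0.473 CPM in WT, against 3.34 ± 0.953 in KO (SD, n = 4), with a log2 fold change of 0.61 (SE 0.23) and an adjusted p of 0.796 in edgeR. The lung-enriched form Cox4i2 was 1.04 CPM in WT, against 1.23 in KO. Usmg5, a small ATP synthase subunit and not such an isoform, was 0.872 and 1.01 CPM. Of its 50-base stretches 40.6% also occur in transcripts of other genes, so its level is uncertain too. The muscle forms Cox6a2 (2.73 and 2.34 CPM), Cox7a1 (1.08 and 1.12 CPM) and Cox8b (0.560 and 0.907 CPM) were low in both groups. Cox7b2 was 0.218 and 0.277 CPM and was not tested. Cox7a2l, a factor that links complexes III and IV, was 48.9 and 50.4 CPM. No entry was found under the symbol Cox8c, so it was not analysed here.

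Mitochondrially encoded subunits were far more abundant. mt-Cytb, cytochrome b of complex III, was 8132 ± 551 CPM in WT, against 8924 ± 478 in KO (SD, n = 4), with a log2 fold change of 0.13 and an adjusted p of 0.796 in edgeR. mt-Co1, the catalytic subunit of complex IV, was 9423 ± 614 CPM in WT, against 10240 ± 700.2 in KO (SD, n = 4), with a log2 fold change of 0.12 and an adjusted p of 0.797 in edgeR. The groups overlapped for both. mt-Co2 had 0 counts in all libraries and mt-Co3 at most 0.101 CPM, and of their 50-base stretches 100% and 99.9% also occur in nuclear pseudogenes. For mt-Co1 the share found in other genes was 51.1%, at 6364 CPM per kb, and for mt-Cytb it was 0%. The level and fold change of mt-Co1 are therefore uncertain as well. No entry was found under the symbols mt-Atp6 and mt-Atp8, so they were not analysed here.

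Assembly factors, which help the subunits come together, also held no gene called by edgeR and none at an unadjusted p under 0.05. Above 0 were 3 of 4 for complex II, 2 of 6 for complex III, 15 of 24 for complex IV and 2 of 5 for ATP synthase. Among those with the lowest p, Ttc19 of complex III was 88.7 ± 3.08 CPM in WT, against 81.7 ± 6.74 in KO, and Cox17, a copper carrier for complex IV, was 7.63 ± 0.581 in WT and 8.80 ± 1.42 in KO (SD, n = 4). Coa4 and Cox11 of complex IV, Uqcc1 and Bcs1l of complex III, Sdhaf1, Sdhaf2 and Sdhaf4 of complex II and Tmem242, Tmem70 and Atpaf1 of ATP synthase overlapped between the groups as well.

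Of 14 nuclear regulators of mitochondrial genes, 4 were above 0 (median -0.07) and 0 were called by edgeR. At an unadjusted p under 0.05 in edgeR there were 2, against 6.16% of all genes. Without overlap between the groups were 2 of the 14, against 3.8% of all genes. Gabpb2, a partner of the DNA-binding ETS factor GABP, was 22.9, 21.0, 23.0 and 21.0 CPM in WT replicates 1 to 4, against 29.2, 28.1, 26.1 and 26.2 CPM in KO. Every KO library lay above every WT library. The log2 fold change was 0.32 (SE 0.07), with an unadjusted p of 0.000617 and an adjusted p of 0.796 in edgeR. Esrrg, an orphan nuclear receptor that acts on oxidative metabolism genes, was 22.5 ± 1.21 CPM in WT, against 19.9 ± 1.18 in KO (SD, n = 4), and the groups did not overlap. Its log2 fold change was -0.17 (SE 0.07) with an adjusted p of 0.796 in edgeR. Tfb1m, which modifies mitochondrial ribosomal RNA, was 3.70 ± 0.366 CPM in WT, against 3.17 ± 0.163 in KO (SD, n = 4).

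Complex I, which feeds electrons in beside complex II, was counted in the same way. Of its 36 nuclear subunit genes, 24 were above 0 (median 0.03) and 0 were called by edgeR. In edgeR 6.16% of all genes had an unadjusted p under 0.05, and 2 of these 36 did. These were Ndufa9, at 109.9 ± 1.28 CPM in WT, against 102.0 ± 2.10 in KO, and Ndufv1, the flavoprotein that takes electrons from NADH, at 186 ± 0.904 in WT and 172 ± 5.87 in KO (SD, n = 4). The groups did not overlap for either gene, as for 3.8% of all genes, and the adjusted p was 0.796 for each in edgeR. Ndufs6, the gene with the next lowest p, was 24.8 ± 1.62 CPM in WT, against 27.8 ± 2.30 in KO (SD, n = 4).

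Markers of other cells in the dissected tissue varied beside these values. In bulk tissue, fewer cells of a type and less RNA per cell cannot be told apart. The sum of 6 interneuron markers was 893 to 939 CPM in WT, against 800 to 831 CPM in KO, without overlap, but its members went both ways, with 2 of 6 above 0. Gad1, the largest part of that sum, had a log2 fold change of -0.20 (unadjusted p of 0.00791 in edgeR). It was the only one of the 6 without overlap, against 3.8% of all genes. Vip was at 0.20 (unadjusted p of 0.0441), and the adjusted p was 0.796 for Gad1 and Vip in edgeR. All 6 oligodendrocyte markers were above 0 with overlapping sums (3472 to 4959 and 4233 to 4771 CPM). All 5 red blood cell genes were above 0. Each had an unadjusted p under 0.05, as 6.16% of all genes did, and an adjusted p of 0.796 in edgeR. Their sums were 69.2 to 102 CPM in WT, against 79.0 to 174 CPM in KO. Choroid plexus markers summed to 2273 CPM in WT replicate 2 and 3503 CPM in KO replicate 2 against 76.3 CPM in WT replicate 4. KO replicate 2 was also the library with the most Cox8a, while WT replicate 1 and KO replicate 1, next highest for Cox8a, held 202 and 198 CPM of these markers. Microglia and endothelium each had 6 of 6 markers above 0, astrocytes 5 of 7, muscle 2 of 4 and hippocampal neurons 3 of 10. None of the marker genes of these lists was at 0 in all libraries, and their part in the values of the subunit genes was not tested.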

How the data were processed

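Counts per Ensembl gene were deposited by the authors as raw whole-number read counts, 1 column per library, from stranded poly(A) libraries. The submitters' processing notes name bcl2fastq 2.17.1.14 and the build mm10. Aligner, counter, annotation and strand setting were not given in the sources used here, so genes with overlaps or copies are uncertain. The member genes, gene lists and tests were chosen with earlier results of these data known.

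KO and WT were compared with edgeR 4.0.16 (R 4.3.3; TMM, filterByExpr, robust quasi-likelihood test, Benjamini-Hochberg over 16228 genes, threshold 0.05), tested on simulated data. SE is the log2 fold change over the square root of F. Symbols were found for 31292 of 31417 IDs. Alternatives were DESeq2 1.42.0, limma-voom (limma 3.58.1), other scalings, filters and thresholds, no robust estimation, a replicate block, each library left out and, added after seeing the data, GC and length offsets (lowess span 0.3, 1 version run). All libraries differed by more than sampling noise (chi-square per degree of freedom 8.85 to 40.9), so all were kept.

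Named genes were all 37 subunit genes, Dclk3, isoforms and mitochondrial genes of these complexes, and the 3 of lowest p in each other pathway list, with full statistics for the 2 of lowest p per complex and for those without overlap. Transcripts and positions came from GENCODE M21: coding, basic set, best APPRIS rank and support level, then shortest. An earlier rule took the longest and was replaced after its lengths were seen. Shared stretches of 50 bases were counted on both strands against all transcripts of other genes.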

Additional observations from a re-analysis of the deposited data

Results flagged for a closer look

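In 3 of the 74 groups of 4 libraries examined, 1 library stood apart from the other 3 by Dixon's test, where chance gives about 1 in 20. Sdhc was 76.8 CPM in WT replicate 2, against 80.7 to 81.4 in the other WT libraries. Atp5g3 was 178.9 CPM in the same library, against 195 to 198 in the others. Sdhd stood at 88.47 CPM in KO replicate 3, while the rest of the KO libraries held 92.2 to 92.4.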

How the results depend on the processing

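None of the 37 genes was called under any alternative run. Genes called over the whole table were 0 in the main test, 5 with DESeq2, 1 with the replicate block, 1 with GC and length offsets plus the replicate block, and 0 to 1 with a library left out. Subunit genes at an unadjusted p under 0.05 numbered 1 in edgeR, 3 with DESeq2, 3 with limma-voom and 2 with upper quartile factors. They numbered 2 without a filter, 2 at a minimum of 1 CPM in 4 libraries and 2 with GC and length offsets. With these offsets and the replicate block there were 4, and with a library left out 0 to 4. Over all genes the same settings gave, in that order, 1000, 968, 1505, 1018, 1332, 899, 1166 and 1090, and 556 to 1777. Without a filter 29064 genes were tested, and at 1 CPM 14173. Subunit genes above 0 numbered 23, and 12 with GC and length offsets, with or without the replicate block; upper quartile factors gave 29, and leaving out a library gave 17 (without WT replicate 2) to 27. The median of the 37 was -0.01 without WT replicate 2. In complex II the count above 0 was 0 with limma-voom and without WT replicate 2. With GC and length offsets, with or without the block, 13 of the 37 signs changed, and in every other setting at most 6. Dclk3 passed the threshold with DESeq2 (log2 fold change -1.80), with the replicate block (-1.76), with offsets and the block (-1.75) and without WT replicate 2; leaving out a library gave -1.88 to -1.54. Cox8a turned negative with the replicate block (-0.048), offsets (-0.083) and both (-0.14), and ranged from -0.18 to 0.27 with a library left out. Cox6a1 turned positive with limma-voom (0.015), upper quartile factors (0.013) and the filter of 1 CPM (0.00035), and ranged from -0.18 to 0.14 with a library left out. With offsets and the block, Cox6a1 was at -0.138, with an unadjusted p of 0.0276 and an adjusted p of 0.721 in edgeR. The cause of these shifts was not tested. Libraries with the same replicate number correlated by -0.219 to 0.139, so the numbers were not taken to pair samples, and the block changed no call among the 37. Depth limits Atp5g2, Cox7c and Atp5l, which had 7 to 109 counts a library.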
